A study of Ovis aries with 6 samples.

Results

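Keratins of the outer root sheath and of skin ducts were examined in the skin of fine-wool and coarse-wool sheep. The group was defined by 9 gene symbols, KRT6A, KRT7, KRT8, KRT15, KRT17, KRT18, KRT19, KRT75 and KRT79. Of the 28394 genes in the deposited tables, 6 carried one of these names, namely KRT7, KRT8, KRT15, KRT17, KRT18 and KRT79. KRT6A and KRT19 were listed under locus names and were matched by gene ID, LOC101112304 for KRT6A and LOC101117946 for KRT19, so that 8 keratins were measured. KRT75 is not analysed here. All 8 passed the filter on low counts, which asked for at least 10 counts in at least 3 sheep and kept 15320 genes.

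The skin came from 3 Super Merino ewes (SM, sheep 128, 30034 and 30126), a fine-wool breed, and from 3 Small Tail Han ewes (STH, sheep XW3, XW5 and XW8), a coarse-wool breed. The sample records give all 6 ewes an age of 9 months, whereas the methods of the study give a younger age, and according to these methods the sheep were kept on the same farm and feed. Skin was taken behind the shoulder blade, and polyA RNA of each sheep was sequenced as 1 paired-end library. Each breed is therefore represented by 3 animals. The p-values of the count tests rest on the spread between these animals, which the tests estimate partly from the other genes.

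Keratins build the intermediate filaments of epithelial cells, and each filament pairs type I with type II chains. KRT17 and KRT19 are type I chains, as are KRT15 and KRT18, whereas KRT6A, KRT7, KRT8 and KRT79 are type II. The outer root sheath is the stratified epithelium that surrounds the growing wool fibre and is continuous with the epidermis. KRT17 and KRT6A mark its suprabasal layers and are also induced in wounded epidermis, and KRT15 marks basal cells including those of the follicle bulge. KRT79 is known from the infundibulum and the duct of the sebaceous gland, and KRT7, KRT8, KRT18 and KRT19 are keratins of glands, ducts and other simple epithelia.

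The libraries held 28870583 to 44645091 total counts, at which 3 counts correspond to 0.0672 to 0.104 CPM (counts scaled to library size). No 2 libraries agreed within sampling noise. The 42 genes with a keratin symbol took 3.52 to 5.30% of all counts, a share that leaves out keratin genes listed under other names, and the 8 keratins took 0.526 to 0.612% in the SM sheep and 0.551 to 0.719% in the STH sheep. In whole skin, fewer cells of a type and less RNA per cell cannot be told apart.

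The genes lie in 2 clusters, and coordinates are those of the deposited tables on the Oar_v4.0 build. The type II cluster on chromosome 3 holds KRT8 at chr3:133210176-133217635, KRT79 at chr3:133267694-133278564 and KRT6A at chr3:133556181-133561380, all on the plus strand, and KRT7 at chr3:133790928-133804229 on the minus strand. KRT18, although a type I gene, lies beside KRT8 on chromosome 3, at chr3:133166627-133170131 on the minus strand. The type I cluster on chromosome 11 holds KRT15 at chr11:41155381-41160459, KRT19 at chr11:41165864-41168936 and KRT17 at chr11:41268874-41274415, all on the minus strand. The spans are whole genes with their exons and introns.

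The keratins of the outer root sheath were far more abundant than those of simple epithelia. By mean RPKM over the 6 sheep, a scale corrected for length, KRT17 stood first at 1067, ahead of KRT6A at 537, KRT15 at 371 and KRT79 at 217. KRT8 followed at 54.1 RPKM, KRT7 at 38.9, KRT19 at 38.3 and KRT18 at 10.7. Among the 15320 genes tested, KRT17 ranked 77 by mean RPKM and KRT18 ranked 4179. Each step of this order held in 6 of 6 sheep except that between KRT7 and KRT19, which held in 3 of 6, so that these neighbours were not separated. KRT17 made up 42.7 to 48.5% of the summed RPKM of the 8 keratins in every library of either breed.

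**Figure D1:**
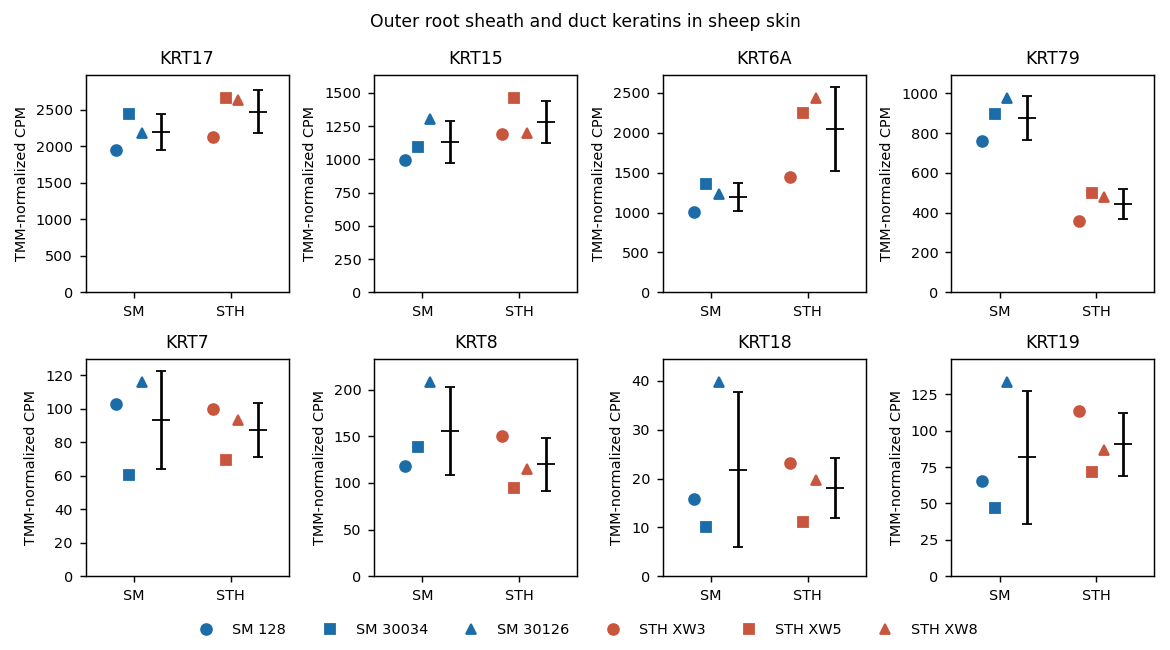
Normalized level (TMM-normalized CPM, linear axis from 0) of each of the 8 keratins in its own panel, with 1 point per sheep, colored by breed, and the group mean with its SD as bars. The 3 SM sheep lie above the 3 STH sheep in KRT79, at 758 to 977 against 358 to 497 CPM, and below them in KRT6A, and the points overlap in the other 6 keratins.

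Between breeds, KRT79 was higher in SM skin and KRT6A was higher in STH skin, and in both genes the 3 sheep of one breed lay wholly apart from the 3 of the other. The other 6 keratins overlapped between breeds. Thus 2 of the 8 keratins (1 of the 6 found by name) did not overlap, against 25.6% of all genes tested, of which 12.3% had all SM sheep on top and 13.3% all STH sheep. By edgeR's quasi-likelihood test, with Benjamini-Hochberg adjustment over the 15320 genes, an adjusted p under 0.05 and a fold over 1.5, 0 keratins passed, as did 0% of all genes. At an unadjusted p under 0.05, 2 of 8 keratins were past the line, KRT79 as 1 of the 7.21% of genes higher in SM and KRT6A as 1 of the 10.8% higher in STH, or 18.0% in all. The number of calls depended on the test. DESeq2 called 2 of 8 keratins (2.89% of all genes), and edgeR's likelihood ratio test (2.30%) and exact test (2.17%) each called 1, whereas limma-voom called 0 keratins and 0% of genes. The newer dispersion estimate of the quasi-likelihood test, chosen after seeing the data, called 0 keratins and 0.0131% of genes. The shares of keratins rest on 8 genes and are given as counts.

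KRT79, the keratin of the infundibulum and sebaceous duct, measured 758, 897 and 977 CPM in SM sheep 128, 30034 and 30126. In STH the values were 358 CPM in XW3, 497 in XW5 and 480 in XW8. The highest STH sheep thus stayed well below the lowest SM sheep. The SM mean was 877 ± 111 CPM and the STH mean 445 ± 75.9 CPM (SD, n = 3 each), a 1.97-fold difference. The log2 fold change (SM over STH) was 0.98 with a 95% interval of 0.57 to 1.39 (adjusted p = 0.159, edgeR quasi-likelihood), and its unadjusted p ranked 46 among the 15320 genes. The study selected KRT79 on these same libraries, so its direction is not independent evidence. KRT79 passed with DESeq2 (adjusted p = 0.000164), and with edgeR's likelihood ratio test (adjusted p = 0.000826) and exact test (adjusted p = 0.00088). It did not pass with limma-voom (adjusted p = 0.152). Without SM sheep 128 it passed by the quasi-likelihood test (adjusted p = 0.0178), as did 7.59% of all genes in that fit, whereas leaving out each other sheep left its adjusted p above 0.05.

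The difference in KRT79 was also seen within the keratins. KRT79 took 12.7 to 13.6% of the summed RPKM of the 8 keratins in the SM sheep and 5.55 to 6.04% in the STH sheep. The sum includes KRT6A, which took 17.5 to 19.6% in SM and 22.9 to 30.3% in STH, and this widens the gap in the share. Per 100 counts of KRT5, the keratin of basal epidermis and outer root sheath, KRT79 gave 16.2, 15.2 and 17.5 counts in SM against 6.44, 7.06 and 5.70 in STH. Per 100 counts of KRT14, the partner of KRT5, KRT79 gave 27.7 ± 2.30 counts in SM and 9.88 ± 0.649 in STH (SD, n = 3 each). These ratios do not depend on how the libraries were scaled, and they were added after the data had been seen. They do depend on KRT5 and KRT14, which themselves had lower means in SM (log2 fold changes of -0.38 and -0.51), and this widens the gap in KRT79 on these scales.

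KRT6A, the wound-inducible keratin of the outer root sheath, measured 1011, 1358 and 1234 CPM in the SM sheep and 1449.5, 2248 and 2439 CPM in the STH sheep. The lowest STH sheep, XW3, stood close above the highest SM sheep, 30034, while XW5 and XW8 were well above all SM sheep. The means were 1201 ± 176 CPM in SM and 2045 ± 525 CPM in STH (SD, n = 3 each), which was 1.70-fold higher in STH. The log2 fold change (SM over STH) was -0.77 with a 95% interval of -1.27 to -0.26 (adjusted p = 0.247, edgeR quasi-likelihood). DESeq2 gave an adjusted p of 0.0378 for KRT6A, and the likelihood ratio and exact tests of edgeR gave adjusted p = 0.0611 and 0.0631. Leaving out 1 sheep at a time moved its log2 fold change between -0.96 and -0.62. KRT6 genes of mammals occur in near-identical copies, and LOC101111178, the next gene beside KRT6A in the cluster, also had all STH values above the SM values, with a log2 fold change of -1.36 (SE 0.33, adjusted p = 0.232, edgeR quasi-likelihood). The study lists LOC101111178 as a type II keratin like KRT6A and selected it on these same libraries as higher in STH. Its direction is therefore not independent evidence. Whether KRT6A and LOC101111178 share reads was not tested, so the level of KRT6A is uncertain. The same holds for KRT17 and KRT14, which are close in sequence.

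KRT17 and KRT15 overlapped between breeds and had the smallest ratio of highest to lowest sheep. KRT17 measured 1950.5, 2448 and 2186 CPM in the SM sheep and 2133, 2666 and 2638 CPM in the STH sheep. Its means were 2195 ± 249 CPM and 2479 ± 300.0 CPM, with a log2 fold change of -0.18 and a 95% interval of -0.55 to 0.20 (adjusted p = 0.545, edgeR quasi-likelihood). The interval allows differences of up to these bounds in either direction. KRT15 measured 994, 1093 and 1303 CPM in the SM sheep and 1188, 1463 and 1197 CPM in the STH sheep. Its log2 fold change was -0.18 with a 95% interval of -0.57 to 0.20 (adjusted p = 0.535, edgeR quasi-likelihood). SM sheep 128 was the lowest sheep in KRT17, KRT15 and KRT6A. Per 100 counts of KRT5, KRT17 was 41.8, 41.6 and 39.2 in SM and 38.4, 37.9 and 31.3 in STH, so SM was higher on this scale without overlap, although the CPM overlapped and had a higher mean in STH. KRT15 per 100 counts of KRT5 was likewise 21.1 ± 2.42 in SM and 18.8 ± 3.98 in STH (SD, n = 3 each), with overlap. The reference KRT5 had a lower mean in SM, so the direction of KRT17 and KRT15, and that of KRT19 below, turns with the scale.

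**Figure D2:**
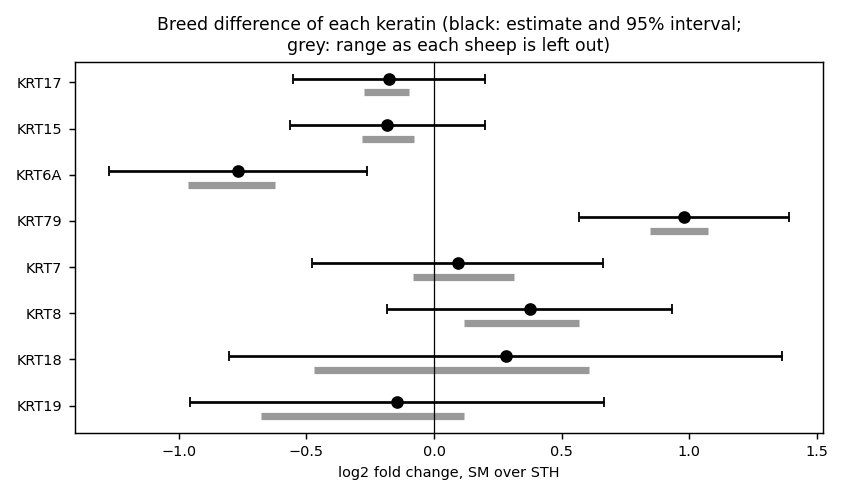
Log2 fold change (SM over STH) of each of the 8 keratins, with the estimate and 95% interval of the edgeR fit in black and the range as each sheep is left out in grey. KRT79 at 0.98 and KRT6A at -0.77 have intervals clear of 0, whereas the intervals of the other 6 include 0.

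In the 4 keratins of glands and simple epithelia, the log2 difference between breeds was smaller than the SD of log2 CPM among the SM sheep. KRT8 measured 118, 139 and 208 CPM in the SM sheep and 149.9, 94.2 and 115 CPM in the STH sheep. Its log2 fold change was 0.37 with a 95% interval of -0.18 to 0.93 (adjusted p = 0.398, edgeR quasi-likelihood). KRT18, the usual partner of KRT8, measured 15.7, 10.01 and 39.8 CPM in the SM sheep and 23.1, 11.2 and 19.7 CPM in the STH sheep. SM sheep 30126 stood far above the other 5, and without it the log2 fold change of KRT18 moved from 0.28 to -0.47. KRT7 measured 103, 60.4 and 116 CPM in the SM sheep and 99.96, 69.2 and 93.2 CPM in the STH sheep, and its log2 fold change was 0.09 with a 95% interval of -0.48 to 0.66. KRT19 measured 65.1, 46.9 and 134 CPM in the SM sheep and 114, 71.5 and 86.5 CPM in the STH sheep, with a log2 fold change of -0.15 and a 95% interval of -0.96 to 0.67. None of these 4 gave an unadjusted p under 0.05 by edgeR's quasi-likelihood test, and their adjusted p lay between 0.398 and 0.845.

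Sheep 30126 was the highest of the 6 in KRT79, KRT7, KRT8, KRT18 and KRT19, and sheep 30034 was the lowest in KRT7, KRT18 and KRT19. The SM sheep therefore included both the highest and the lowest values of these 3 genes. The SD of log2 CPM in the SM sheep was 1.01 for KRT18 and 0.77 for KRT19, against 0.16 for KRT17 and 0.19 for KRT79. KRT18 spanned 3.98-fold between the highest and lowest sheep, and KRT17 1.37-fold.

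**Figure D3:**
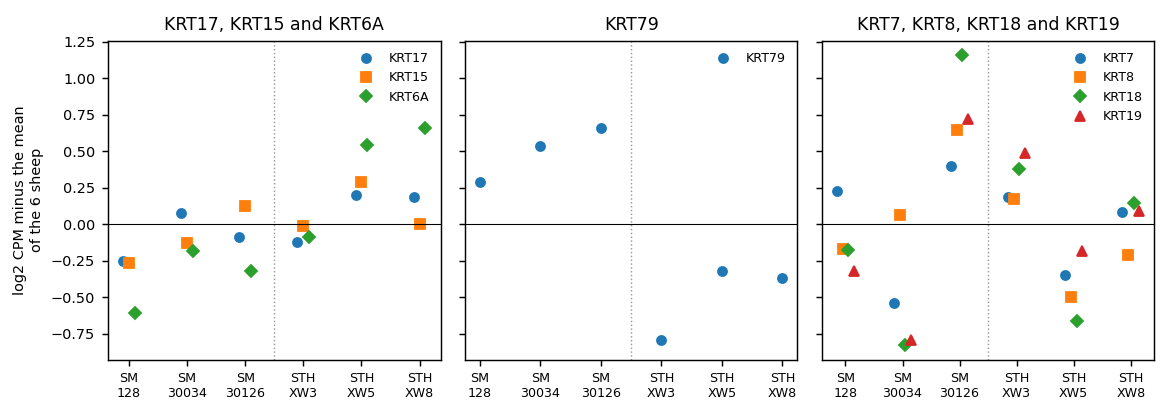
Log2 CPM of each keratin in each of the 6 sheep, minus the mean of that keratin over the sheep, in 3 panels. KRT7, KRT18 and KRT19 were lowest in SM sheep 30034 and highest in SM sheep 30126, whereas KRT79 separated the breeds.

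The keratin chains that pair in filaments were then compared as ratios within each library. The ratio of KRT6A to KRT17 counts was 0.518, 0.555 and 0.564 in SM against 0.680, 0.843 and 0.925 in STH, without overlap of the breeds. The difference of log2 ratios (SM minus STH) was -0.57 (exact two-sided permutation test, p = 0.1, adjusted p = 0.3 over 3 pairs), and 0.1 is the smallest p that 3 against 3 sheep allow. KRT8 had more counts than KRT18 in every sheep, by 5.23 to 13.9 times in SM and 5.85 to 8.41 times in STH. This ratio did not separate the breeds (exact permutation p = 0.7, adjusted p = 0.7). The ratio of KRT7 to KRT19 counts was 0.869 to 1.58 in SM and 0.879 to 1.08 in STH (exact permutation p = 0.4, adjusted p = 0.6). These ratios of counts are not corrected for length, so their size does not give the balance of the 2 transcripts or chains. The differences of log2 ratios between breeds are the same with RPKM by construction, because length and library size cancel in them.

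**Figure D4:**
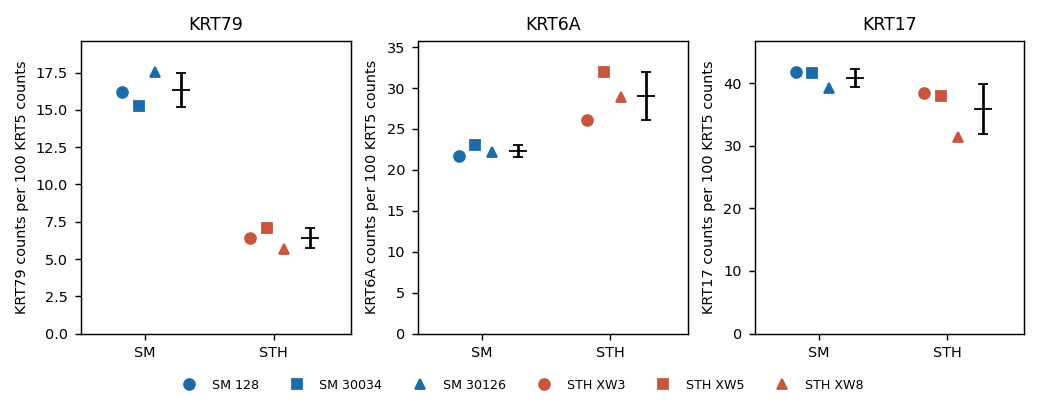
Counts of KRT79, KRT6A and KRT17 per 100 counts of KRT5 on linear axes from 0, with 1 point per sheep and the group mean with its SD as bars. KRT79 lies at 15.2 to 17.5 in SM and 5.70 to 7.06 in STH, and KRT6A lies at 21.6 to 23.1 in SM and 26.1 to 32.0 in STH, while KRT17 lies at 39.2 to 41.8 in SM and 31.3 to 38.4 in STH.

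Other epithelial genes were read from the same fit to place the 8 keratins. Their median log2 fold change was -0.027, and that of the 6 found by name 0.19, against 0.018 for all genes tested. KRT5 and KRT14, which are expressed beneath and beside the outer root sheath keratins, had log2 fold changes of -0.38 and -0.51, and 1 of the 2 had an unadjusted p under 0.05. Of 7 suprabasal epidermal keratins, 1 was higher in SM and 3 in STH at an unadjusted p under 0.05. Of all genes tested, 7.21% were higher in SM and 10.8% in STH at this line. The 2 classical suprabasal keratins stood at -1.34 for KRT10 (adjusted p = 0.200) and -1.20 for KRT1 (adjusted p = 0.247, edgeR quasi-likelihood). KRT77 stood at -0.77, whereas KRT80, the 1 higher in SM, stood at 0.40, and the median of the 7 was -0.11. The breeds overlapped in KRT1 and KRT77 but not in KRT10 and KRT80. KRT10 and KRT1 thus had higher means in the same breed as KRT6A. The study selected both on these same libraries, so their direction is not independent evidence. The part of epidermal content in the KRT6A difference was not tested.

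Among all 15320 genes tested, 7873 had higher means in SM, and 12.3% had all SM sheep on top. At an unadjusted p under 0.05, 7.21% of all genes were higher in SM and 10.8% in STH. Of 21 outer root sheath and bulge genes tested, 2 were higher in SM and 2 in STH at this line, with a median log2 fold change of -0.0047. CD200, a bulge surface protein that the study selected on these same libraries, had a log2 fold change of 0.84, and FGF18, a follicle growth factor, -0.72. Of 5 infundibulum and duct genes tested, KRT79 was the 1 with an unadjusted p under 0.05, and LRIG1, CST6 and GATA6 had log2 fold changes of 0.09, -0.11 and -0.10. All 12 sebocyte genes had higher means in SM, 10 with an unadjusted p under 0.05 and 7 without overlap, and their median log2 fold change was 0.74. Their summed level was 2536, 2552 and 3729 CPM in the SM sheep and 1628, 2010 and 1691 CPM in the STH sheep. Several of these genes were selected by the study on these same libraries, and the part of sebaceous gland content in the KRT79 difference was not tested.

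The lists that follow are to be read beside the same shares of all 15320 genes. These are 7873 with higher means in SM, and 7.21% in SM and 10.8% in STH at an unadjusted p under 0.05. Of 16 sweat gland genes tested, 8 had higher means in each breed, with a median of 0.0047. Of these 16, 2 in SM (LTF at 1.57 and FOXC1 at 0.39) and 0 in STH had an unadjusted p under 0.05. Their summed level was 538 to 611 CPM in SM and 551 to 709 CPM in STH, and CA2 among them had 2129 to 7528 counts. AQP5, with 0 to 8 counts, was below the filter and was not among the 16. Merkel cells also express KRT8 and KRT18. Of 10 Merkel cell genes 5 were tested, and all 5 had higher means in SM, with a median of 0.68 and 1 unadjusted p under 0.05, that of CHGA, which had 34 to 171 counts in SM and 10 to 16 in STH. The genes below the filter included KRT20 with 0 to 10 counts, ATOH1 with 2 to 12, and ISL1 and POU4F3 with 0 in every library. The summed level of the 5 tested genes was 12.5 to 18.2 CPM in SM and 9.03 to 12.7 CPM in STH, and the part of Merkel cells in the KRT8 and KRT18 values was not tested. Of 10 other simple epithelial genes, 6 had higher means in SM, with a median of 0.19. Of 17 keratins of the wool fibre listed, only 9 were found and tested, of which 8 had higher means in SM, and the median was 0.47. Wool keratin genes under other names are left out of these values. An unadjusted p under 0.05 was found for 2, KRT36 at 0.80 and KRT84 at 0.67, and 7 of the 9 overlapped between breeds. The summed level of the 9 was 6386, 7323 and 12232 CPM in SM sheep 128, 30034 and 30126. In STH it was 8309 CPM in XW3, 4379 in XW5 and 6185 in XW8, so sheep 30126 stood far above the others. The 7 inner root sheath keratins had a median of -0.21, with KRT27 at -0.52 the 1 with an unadjusted p under 0.05. Of 10 genes of keratin partners, mostly of desmosomes and filament linkers, 1 had an unadjusted p under 0.05, the linker DST at -0.65, and the median was -0.047. All 6 smooth muscle genes had lower means in SM, with a median of -0.68, and 5 of them had an unadjusted p under 0.05. The study selected KRT36 and several of these smooth muscle genes, among them MYH11, DES and ACTG2, on these same libraries. Their directions are therefore not independent evidence. In none of these lists did a gene pass both thresholds by edgeR's quasi-likelihood test.

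**Figure D5:**
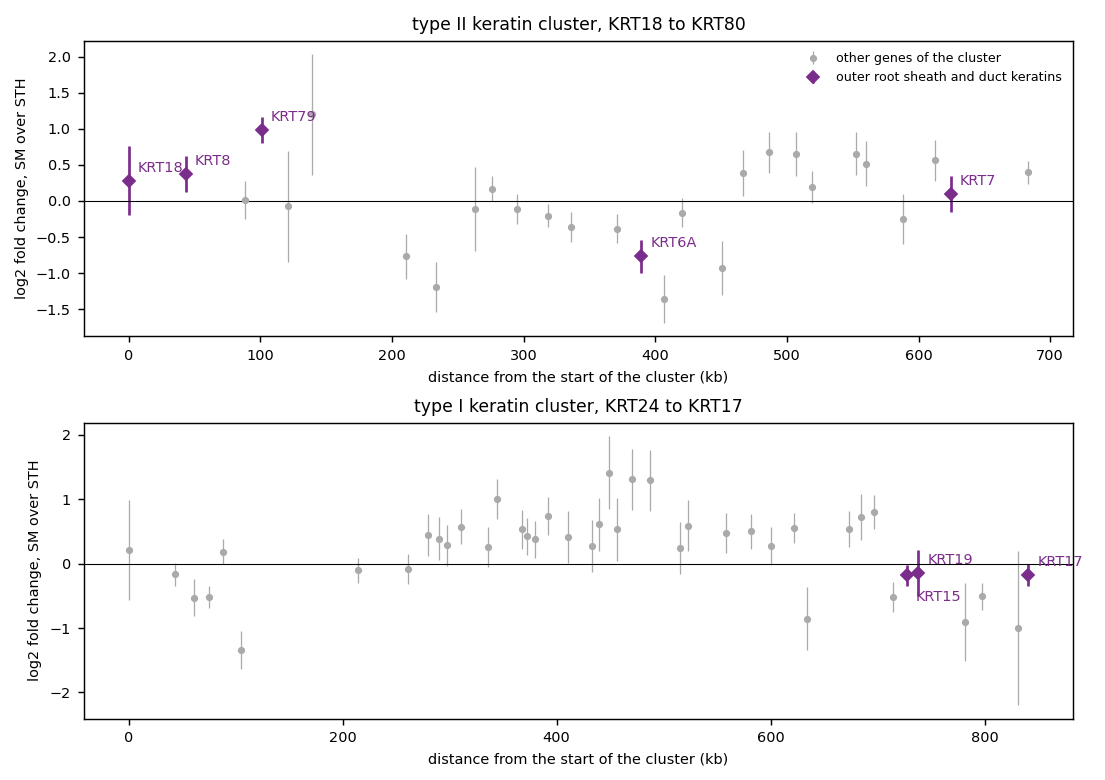
Log2 fold change (SM over STH) of each tested gene against distance from the start of the keratin cluster in kb, for the type II cluster (28 genes) and the type I cluster (42 genes), with bars of 1 SE. KRT79 stands at 0.98 beside KRT78 and KRT4, whose levels are low and of which KRT4 has a wide bar, whereas KRT6A at -0.77 lies between genes that are also below 0.

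The genes beside these keratins were then compared. In the type II cluster 15 of the 28 genes tested had higher means in SM and 13 in STH, with a median log2 fold change of 0.05. Over all genes tested, 7873 of 15320 had higher means in SM. The genes on either side of KRT79, KRT78 and KRT4, had log2 fold changes of 0.015 (SE 0.27) and -0.076 (SE 0.76), at low mean levels of 7.92 and 0.607 CPM, so the value of KRT4 is imprecise. KRT6A lies between KRT5 at -0.38 and LOC101111178 at -1.36, both with higher means in STH like KRT6A itself. In the type I cluster, which also holds the wool keratin and keratin-associated genes, 28 of 42 genes had higher means in SM, and the median was 0.33, while KRT15, KRT17 and KRT19 measured -0.18, -0.18 and -0.15.

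The genes with the most similar pattern over the 6 sheep were found by the mean absolute difference of centred log2 CPM. For KRT79 these were KIF9 at 0.0708, LOC101107135 at 0.0761 and TMEM86A at 0.0881. For KRT6A they were RARRES1 at 0.0637, LOXL4 at 0.107 and KCNT1 at 0.118. The nearest gene was DDIT4 for KRT15, IGF2BP2 for KRT7, UCK2 for KRT8, LOC105609938 for KRT18 and CCL21 for KRT19. LOC105609938, at a distance of 0.116, had a low mean level of 0.408 CPM, so its match to KRT18 is imprecise. Among the keratins themselves, KRT17 and KRT15 were the closest pair at 0.137, followed by KRT18 and KRT19 at 0.210, and KRT6A and KRT79 were the farthest apart at 0.865. These distances are descriptions over 6 sheep of genes chosen from 15320.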

How the data were processed

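The authors mapped paired-end reads to Oar_v4.0 with CLC Genomics Workbench and deposited, for each library, total counts, RPKM, TPM and a CPM column. The deposited counts are raw counts per gene, the deposited RPKM values are scaled by exon length, and the deposited TPM values were not used. The deposited CPM column, which the authors scaled by library, was classed as a score and left out. The mapping table of the study lists exonic, intronic and non-specifically mapped fragments among those counted, and which of these entered the total counts was not tested. Gene IDs were matched to a RefSeq name table, in which 21630 of 28394 were found, and its coordinates were not used. The 9 symbols and the gene lists were chosen with earlier results of these data known. The genes named are the 9 symbols, up to 4 genes of a list with the smallest unadjusted p and the 3 genes closest to each keratin in pattern. The markers AQP5, CA2, KRT20, ATOH1, ISL1 and POU4F3, the cluster neighbours and the ratios to KRT5 and KRT14 were chosen after their values had been seen.

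Counts were normalized by TMM and tested with edgeR 4.0.16 in R 4.3.3 (glmQLFit, glmQLFTest), breed being the only term, with a prior count of 2 for log2 CPM. DESeq2 1.42.0, limma 3.58.1, the edgeR likelihood ratio and exact tests, RLE and upper quartile normalization, other count filters, removal of a length trend and leaving out each sheep were alternatives. Ratios were tested by exact permutation with SciPy 1.17.1. The scripts were tested on simulated data. The gene nearest to KRT17 in pattern is not reported here. No sequence is printed.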

Additional observations from a re-analysis of the deposited data

How the results depend on the processing

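By edgeR's quasi-likelihood test 0 genes passed both thresholds, against 443 with DESeq2, 352 with the likelihood ratio test, 332 with the exact test, 2 with the newer dispersion estimate, 2 with no filter and 8 with the length trend removed. Leaving out 1 sheep gave 0 to 1163 genes, with 1163 without SM sheep 128, 3 without sheep 30034, 2 without 30126 and 1 without XW3. The count of genes at an unadjusted p under 0.05 ran from 1133 without XW5 to 4621 without 128. Of the 6 keratins found by name, 1 (KRT79) passed with DESeq2, the likelihood ratio test and the exact test, and 0 to 1 when 1 sheep was left out, with 1 without SM sheep 128. Of the 8 keratins, 2 passed with DESeq2, 1 with the likelihood ratio test and 1 with the exact test, and 0 to 1 when 1 sheep was left out. The median of the 6 was 0.19, and -0.12 to 0.37 when 1 sheep was left out, with the lowest value without SM sheep 30126.

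The sign changed for KRT7, at -0.083 without sheep 30126 and -0.052 without XW5 (up to 0.31 without 30034), for KRT18, at -0.47 without 30126 (up to 0.61 without 30034), for KRT19, at 0.12 without 30034 and 0.051 without XW3 (down to -0.68 without 30126), and for the log2 ratio of KRT8 to KRT18, at -0.12 without 30034 and at most 0.58 without 30126. The cause was not tested. KRT6A, KRT8, KRT15, KRT17 and KRT79 kept the sign of their log2 fold change under every test, normalization, filter and left-out sheep, but KRT17, KRT15 and also KRT19 had higher means in SM per 100 counts of KRT5 or KRT14. With limma-voom 0 genes passed. No paired analysis was possible because the labels name individual animals, and nothing links those of SM to those of STH.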
